A study of Mus musculus with 14 samples.

Results

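Chromosomes 2, 7 and 9 are the autosomes on which B16F10 melanoma cells differed least from blood cells by the mean absolute coverage difference per bin. They hold 819 of the 4880 bins into which the genome was divided. All bins of the 3 chromosomes were taken, 332 on chromosome 2, 261 on chromosome 7 and 226 on chromosome 9, with a median width of 531 kb in the mm10 build. They were chosen by the chromosome means of 2 contrasts in these data, cultured tumor cells against naive white blood cells and circulating tumor cells against white blood cells, so the smallness of those differences is a description of the choice and was not tested. Whole-genome DNA of 648 single cells in 14 samples was amplified by MALBAC, which copies the genome of 1 cell in looping cycles before sequencing. B16F10 is a metastatic melanoma line of the C57BL/6J strain. There were 9 samples from female C57BL/6J mice aged 6 to 8 weeks that had been injected with fluorescently labelled B16F10 cells and given no drug, and their cells were sorted by flow cytometry from blood and lung on tumor and host markers. Among their cells were 450 of the class DP from all 9 samples, 46 white blood cells (WBC) from 6 and 43 circulating tumor cells (CTC) from 5. Controls made up the remaining 5 samples: cultured B16F10 (22 cells) and, from naive female C57BL/6J mice of the same age, WBC (21), CDP (18), Duplike (24) and PltLike (24). The labels do not spell out DP, CDP, Duplike or PltLike, do not say which sorting markers define them, and do not say whether a sample is 1 mouse, so the spread between samples may be technical in part.

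A tumor genome with extra or missing chromosome pieces yields more or less DNA from those pieces, and the coverage of a bin relative to the rest of the cell follows its copy number. Chromosomes that stay in proportion to the rest form the baseline against which gains and losses are read. A chromosome average can be near the baseline because nothing changed, because a gain and a loss on the same chromosome offset each other, or because only a few cells changed. Chromosome 7 carries the pigment genes Tyr (tyrosinase) and Oca2 (a melanosome transport protein), and chromosome 9 carries the DNA damage kinase genes Atm and Atr.

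Each value is the deposited normalised coverage of a bin divided by the median of the cell's own chromosomes 1 to 19, on the log2 scale. Read counts per cell were not part of the data, so the depth is unknown and the bin-to-bin noise of a cell stands in for its precision. The noise had a median of 0.169 over all cells and ran from 0.133 to 0.264. The autosomal medians of the cells gathered near levels of 1.82, 3.72, 5.64, 7.75 and 9.59 deposited units, called levels 1 to 5 here, with 244, 317, 61, 10 and 16 cells. All WBC lay at level 1 and all CTC and cultured cells at level 2, while DP cells spread over levels 1 to 5 with 177, 219, 29, 9 and 16 cells. On the other 16 autosomes a slope of 0 marks the profile of naive WBC and 1 that of the culture. There the mean slope was 0.97 ± 0.057 in CTC (SD, 43 cells) and 0.013 ± 0.029 in WBC (46 cells), as against 0.91 in PltLike, 0.74 in Duplike and 0.68 in CDP cells. The labels give these last 3 as cells of naive mice, which their tumor-like profiles go against. A value of exactly 10 recurred in some bins. The 42 bins that held it in 1% of cells or more were dropped, which left 777 of the 819 (312, 250 and 215 on chromosomes 2, 7 and 9). No pair of cells shared all values over these bins, and the highest correlation between cells was 0.971.

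In the B16F10 culture chromosomes 2, 7 and 9 lay close to the level of blood cells over most bins, with 79 of the 777 at 0.1 or beyond. Relative to naive WBC the mean log2 difference was -0.0058 on chromosome 2, -0.029 on chromosome 7 and -0.016 on chromosome 9 (22 cultured cells against 21 naive WBC, 1 sample each). By this mean chromosomes 16 (-0.0060) and 12 (0.018) lay nearer 0 than chromosome 7. The mean absolute difference per bin was 0.053, 0.048 and 0.043, the 3 smallest of the 19 autosomes, followed by 0.059 on chromosome 16. Between WBC of tumor-injected mice and naive WBC, where no tumor DNA is labelled, the same measure was 0.051, 0.056 and 0.051. Over the 777 bins it was 0.049 for the culture and 0.053 for these WBC, and over the other 16 autosomes it was 0.205 and 0.054. Of the 777 bins 3 differed by at least 0.2 between culture and naive WBC and 5 between both sets of WBC, while 35.8% of all autosomal bins did so in the culture. As these are the values the chromosomes were picked for, nothing is read from that share.

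**Figure D1:**
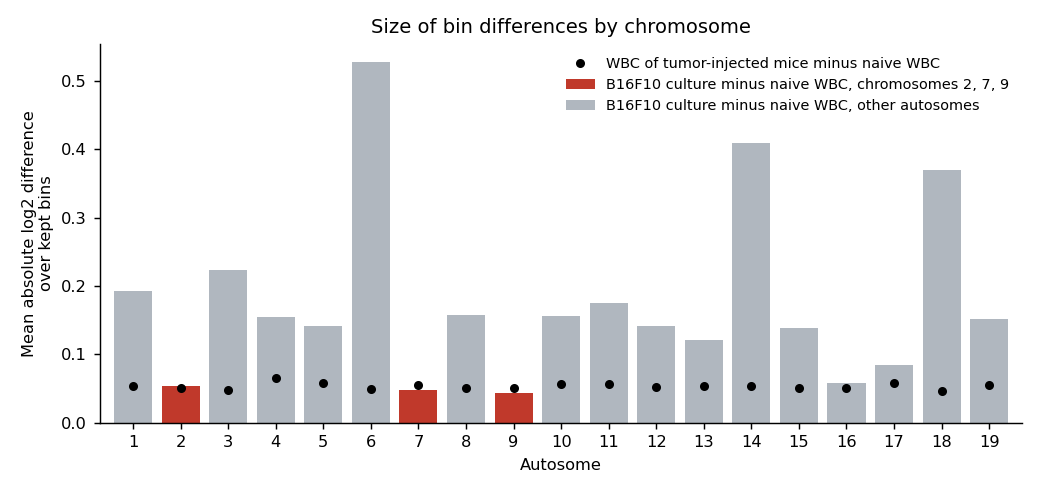
Mean absolute log2 difference over kept bins (vertical axis) for each autosome (horizontal axis). Bars give B16F10 culture minus naive WBC, red for chromosomes 2, 7 and 9 (0.053, 0.048 and 0.043), and black points give WBC of tumor-injected mice minus naive WBC, which lie at 0.051 to 0.056 on the same chromosomes.

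Opposed gains and losses under these averages were small. In a running median of 5 bins, the gains of chromosome 2 averaged 0.017 over the chromosome and its losses -0.020, for a sum of 0.037 regardless of sign. The same sum was 0.037 on chromosome 7 and 0.025 on chromosome 9, as against 0.030, 0.039 and 0.033 between both sets of WBC. Chromosome 12, whose mean culture difference of 0.018 is smaller in size than that of chromosome 7, had a sum of 0.138, with gains of 0.078 and losses of -0.060. The highest smoothed point of the culture was 0.089 on chromosome 2 (chr2:51743039-52265551), 0.062 on chromosome 7 and 0.053 on chromosome 9. The lowest were -0.14 (chr2:140393408-140933340), -0.11 and -0.084. These extremes lay close to those between both sets of WBC, which ran from -0.13 to 0.11 on chromosome 2 and from -0.10 to 0.12 on chromosome 7.

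No run of at least 5 bins at 0.2 or beyond was found in culture minus naive WBC on chromosomes 2, 7 and 9, against 29 runs on the other 16 autosomes. With a limit of 0.15 the counts were 0 and 24, and with 0.3 they were 0 and 38. Runs of at least 3 bins at 0.1 or beyond numbered 2 in the culture and 6 between both sets of WBC. In CTC minus WBC there were none at 0.2, 2 of at least 3 bins at 0.15, and at 0.1 there were 13 of at least 3 bins, 4 of at least 5 and 1 of at least 10. There 11.5% of the length of chromosome 2 and 13.5% of chromosome 7 lay at 0.1 or beyond, as against 2.26% and 2.12% in the culture. At a median bin width of 531 kb, a change shorter than a few bins could appear only as single deviating bins.

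**Figure D2:**
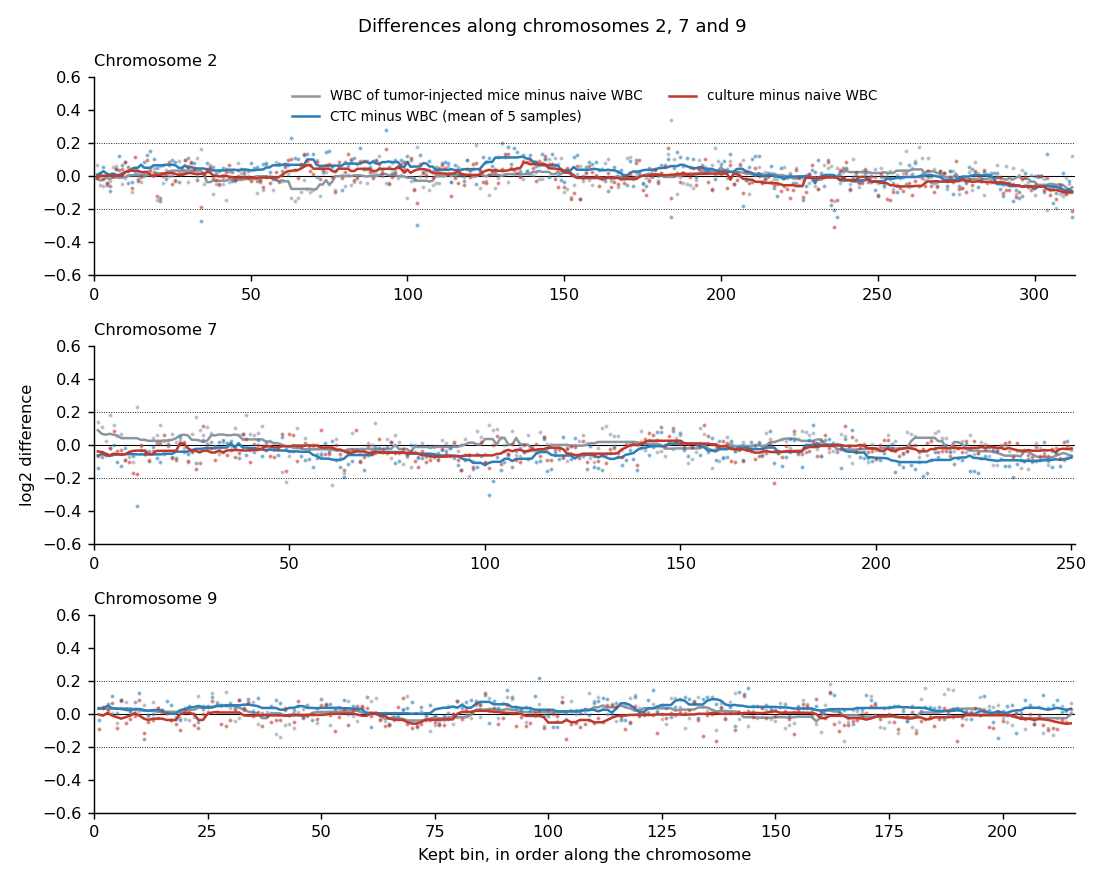
Log2 difference (vertical axis) of each kept bin in order along chromosomes 2, 7 and 9 (horizontal axis), with points for bins and lines for a running median; dotted lines mark -0.2 and 0.2. Culture minus naive WBC (red), CTC minus WBC (blue, mean of 5 samples) and WBC of tumor-injected mice minus naive WBC (grey) have lines that keep within the dotted lines, and single bins lie beyond them.

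The lowest bin of chromosome 2 in the culture lay inside the large gene Macrod2 (chr2:140933341-141452040). Its coverage ratio was 0.855 ± 0.076 in culture (SD, 22 cells) and 1.08 ± 0.14 in naive WBC (21 cells), a log2 difference of -0.31, with -0.15 and -0.14 in the bins before and after, so the dip was wider than 1 bin. CTC minus WBC at this bin was -0.27 in C1L, -0.22 in C1N, -0.096 in C1R, -0.35 in C2R and -0.092 in C3R, below 0 in all 5 samples (-0.21 ± 0.11). The last bin of the chromosome (chr2:181461529-182113224), which holds the endothelial transcription factor gene Sox18, was lower by a similar amount, at -0.21 in culture and -0.25 ± 0.061 in CTC minus WBC. The bin with Acvr1, a receptor of bone morphogenetic proteins (chr2:58412669-58953194), was the most raised in CTC. There CTC minus WBC was 0.29, 0.28, 0.28, 0.34 and 0.21 in C1L, C1N, C1R, C2R and C3R, and the culture was higher by 0.17. The highest bin in the culture, chr2:111004248-111582292, holds 22 olfactory receptor genes and was at 0.17, with 0.10 ± 0.083 in CTC minus WBC.

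On chromosome 7 the lowest bins lay in clusters of chemosensory receptor genes, whose near-identical copies make short reads hard to place. The bin chr7:102855562-103441888, with 39 olfactory or vomeronasal receptor genes, was at -0.23 in culture, and CTC minus WBC there ranged from -0.32 in C1N to 0.11 in C1L. The bin chr7:9402899-10023226, with 7 such genes, was at -0.18 in culture and at -0.37 ± 0.36 in CTC minus WBC, with -0.96 in C1N and -0.048 in C1L. Its coverage ratio in naive WBC was only 0.248 ± 0.17, so small absolute changes weigh heavily there, and WBC of tumor-injected mice differed from naive WBC by 0.23. The highest bins of chromosome 7, chr7:93296141-93862404 and chr7:20366632-20965974 (with 17 vomeronasal receptor genes), were both at 0.12 in culture and at 0.0088 and 0.029 in CTC minus WBC. Chromosome 9 had no bin at 0.2 or beyond. Its lowest bins, chr9:110655781-111180351 and chr9:80379199-80961515 (with the retinal matrix gene Impg1), were at -0.17 and -0.16 in culture and at 0.035 and 0.057 in CTC minus WBC, that is on opposite sides of 0. Its highest bins hold Atr (chr9:95853308-96381707, 0.13) and Atm (chr9:53013481-53544002, 0.12). At the Atr bin WBC of tumor-injected mice differed from naive WBC by 0.18, more than the culture did, and at the Atm bin by 0.023.

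Some bins were low in blood cells and tumor cells alike. In naive WBC 12 of the 777 bins (1.54%) had a coverage ratio below 0.5, against 0.538% of bins on the other 16 autosomes, and all 12 were below 0.5 in WBC, culture, CTC and DP cells as well. Chromosome 7 held 8 of them, of which 6 contain 72 chemosensory receptor genes between them. On chromosome 2 the adjoining bins chr2:175195854-175842271 and chr2:175842272-176642278, filled with zinc finger genes such as Zfp968 and Zfp966, were near 0 in every class. The bin with Ube3a, a ubiquitin ligase gene of an imprinted region (chr7:59179318-59724394), had ratios of 0.454 ± 0.054 in naive WBC and 0.436 ± 0.074 in culture.

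The profiles of culture and CTC were set side by side. Over the 777 bins the culture difference and CTC minus WBC correlated with r = 0.526 (0.661 on chromosome 2, 0.397 on chromosome 7 and 0.369 on chromosome 9), as a description over neighbouring bins of the same libraries, against r = 0.955 over the other 16 autosomes. The sign was shared at 512 of the 777 bins (65.9%), and on chromosome 9 at 113 of 215 (52.6%), against 2561 of 3343 (76.6%) on the other 16 autosomes. The choice of chromosomes with small differences narrows the range over which r is taken, so the lower r is not read as a weaker relation. The slope on the culture profile, computed from the 777 bins alone, was 0.80 ± 0.33 in CTC (SD over 43 cells), 0.091 ± 0.28 in WBC and 0.79 ± 0.32 in DP cells of level 2. DP cells of level 1 had 0.29 ± 0.36 although their slope on the other 16 autosomes was 0.028 ± 0.091. The naive WBC spread around 0 by 0.18, so the slope of a single cell on these chromosomes was imprecise. The DP level 1 means of the 9 samples ran from 0.11 (C1R) to 0.44 (C1L). The 10 level 1 cells of C1L include a cell with an autosomal median of 2.44 units, between levels 1 and 2. Its slope on the other 16 autosomes was 0.94, and the C1L level 1 mean there was 0.13. The naive WBC mean is subtracted from both the cell and the culture, so its noise is shared by both sides of the slope. What part this has in the 0.29 was not tested.

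Bins were then compared between classes within samples by limma, with the mean of each class in a sample as the value, the sample as a block and Benjamini-Hochberg adjustment over 4376 bins (5 samples). With the false discovery rate held at 5%, CTC minus WBC passed at 110 of the 777 bins (14.2%), 53 of them higher and 57 lower, where 49.8% of all bins tested passed. In DP minus WBC 21 passed (2.70%), 5 higher and 16 lower, where 38.3% of all bins did. That count fell to 3 without C3R, 4 without C1L and 5 without C2R. Over all bins tested the count fell from 1677 to 1148, 928 and 935 in the same fits. In CTC minus DP 4 passed (0.515%), 1 higher and 3 lower, where 24.3% of all bins did, and 1 passed without the sample as a block. The count was 0 without C1N, C1R or C2R, where 34, 14 and 15 bins had an unadjusted p under 0.05 by limma, and 1 without C1L. Without C1N, C1R or C2R 0 of all 4376 bins passed, so those fits lost their calls on every chromosome. CTC minus WBC and DP minus WBC share their WBC, and the chromosomes were picked for small differences between these classes, so nothing is read from the low shares. The direction of the calls in CTC minus WBC differed between chromosomes, in part through C1N. Chromosome 7 had 39 lower and 0 higher calls, chromosome 9 had 3 lower and 18 higher, and chromosome 2 had 15 lower and 35 higher. Without C1N 8 of 31 calls on chromosome 7 were higher, as were 11 of 16 on chromosome 9 and 31 of 61 on chromosome 2.

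These calls were small and scattered. The median size of the 110 was 0.14 and 98 were under 0.2. They fell into 83 stretches, of which 63 were single bins, 14 were pairs and 6 were longer. The longest was of 4 bins, chr7:135888172-137955750, with a mean of -0.14, and the next on chromosome 2, chr2:80148726-82395136, had a mean of 0.16 over 3 bins. At 93 of the 110 bins (84.5%, against 65.9% of the 777) the culture differed from naive WBC with the same sign, with a median size of 0.064. Without C2R 72 bins passed, and with the median over cells in place of the mean 49 passed.

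Of 75 listed genes on the 3 chromosomes, in 64 bins, 9 (12%) lay in a bin that passed in CTC minus WBC, 4 higher and 5 lower, a share near the 14.2% of the 777 bins and below the 49.8% of all bins. Their median difference was 0.0065, against 0.0064 over the 777 bins and -0.0089 over all autosomal bins. Of 23 growth signalling genes 2 were higher and 2 lower. Itgav, which encodes an integrin subunit, was at 0.17 ± 0.11 (SD, 5 samples, adjusted p = 0.0068 by limma), and Ctnnb1, the gene of beta-catenin, was at 0.11 ± 0.030. Ntrk3, a neurotrophin receptor gene, was at -0.14 ± 0.058 and the growth factor gene Igf2 at -0.14 ± 0.13, with -0.34 in C1N and -0.084 without it. In the culture Itgav was at 0.034, Ctnnb1 at -0.065, Ntrk3 at -0.065 and Igf2 at -0.026. WBC of tumor-injected mice differed from naive WBC by 0.013, -0.12, -0.10 and -0.035 at these 4 bins. At Ctnnb1 this was opposite in sign to CTC minus WBC and of like size. CTC were thus higher there than WBC that lay below naive WBC, and the call is not read as a gain. Among other growth genes the kinase genes Pak1 (-0.11) and Akt2 (-0.11), the adaptor gene Gab2 (-0.097), Tsc1, which restrains growth signalling (0.069), and Src (0.033), did not pass in CTC minus WBC, where they lay between -0.039 and 0.034.

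Of 20 genes for DNA repair and chromatin 2 were higher, Atm at 0.11 ± 0.047 and Atr at 0.13 ± 0.097, which are the same bins as named above. At the Atr bin C3R was on the other side of 0, at -0.042. The excision repair genes Ercc1 and Ercc2 share a bin that was at -0.14 in culture and -0.11 ± 0.14 in CTC minus WBC, which did not pass. Neither did Kmt2a, a histone methyltransferase gene (-0.086 and 0.072 ± 0.080), or the DNA methyltransferase gene Dnmt3b (0.018 and -0.047 ± 0.040). Of 19 genes for cell cycle and cell death 2 were lower, the mitotic kinase gene Aurka (-0.13 ± 0.12) and the cyclin-dependent kinase inhibitor gene Cdkn1c (-0.13 ± 0.094). Pcna, the gene of the replication clamp, was at -0.13 in culture and at 0.0065 ± 0.049 in CTC minus WBC. The cell cycle transcription factor gene E2f1 was at -0.11 and 0.013 ± 0.085, and the phosphatase gene Cdc25a at 0.016 and -0.0013 ± 0.043. Of 13 pigment cell genes 1 was lower, the melanocyte channel gene Trpm1 (-0.15 ± 0.088, adjusted p = 0.0071 by limma). Tyr was at 0.11 in culture and 0.077 ± 0.13 in CTC minus WBC, and Oca2 at -0.068 and -0.019 ± 0.16, neither past the test. Rab27a, for melanosome transport, was at -0.12 in culture, Rab38, for melanosome formation, at 0.055 and the vesicle sorting gene Vps18 at 0.016, with 0.011, 0.012 and -0.019 in CTC minus WBC. In DP minus WBC 2 of the 75 genes passed, Aurka and Trpm1, both lower, a share of 2.67% beside 2.70% of the 777 bins, and in CTC minus DP 0 passed. With each of the 5 samples left out in turn, 3 of the 9 genes passed every time in CTC minus WBC, Itgav, Ntrk3 and Trpm1. The other 6 did not pass without at least 1 of the samples: Atm without C1N, C1R or C2R, Atr without C1L, C1N, C1R or C2R, Aurka without C1L, C1R, C2R or C3R, Cdkn1c without C1L, C1N or C1R, Ctnnb1 without C2R or C3R, and Igf2 without C1L or C1N. Their direction was kept in all of these fits.

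At the level of whole chromosomes the class means of the samples stayed within 0.2 of 0. CTC minus WBC on chromosome 2 was 0.0080 in C1L, 0.071 in C1N, 0.014 in C1R, -0.0029 in C2R and 0.018 in C3R, with a mean of 0.022 ± 0.029. On chromosome 9 it was 0.046, 0.099, 0.019, 0.0087 and -0.015 in the same order, with a mean of 0.031 ± 0.044. Chromosome 7 was the most variable, at 0.058, -0.19, -0.088, -0.027 and -0.030, with a mean of -0.056 ± 0.093. In all 3 cases C1N lay farthest from 0, and without it the means were 0.0095 ± 0.0093, 0.015 ± 0.025 and -0.022 ± 0.060 on chromosomes 2, 9 and 7. With all bins kept, chromosome 2 was at -0.021 and chromosome 9 at -0.0023, on the other side of 0. The WBC differed too, with chromosome 7 at -0.063 in C1L and 0.053 in C1R. The DP means of the 9 samples ran from -0.015 (P2) to 0.022 (C1R) on chromosome 2, from -0.058 (P1) to -0.0056 (C2N) on chromosome 7 and from -0.0040 (P2) to 0.031 (C1L) on chromosome 9.

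Most of the departure of C1N came from 4 cells. Of its 6 CTC, 4 from blood had chromosome 7 lowered to nearly the same degree, by a median over bins of -0.26, -0.26, -0.25 and -0.23. This deviation of a chromosome in a cell is taken from the profile expected at that cell's slope. The other blood CTC was at 0.069 and the lung CTC at -0.0013. In the same 4 cells chromosome 9 was raised by 0.12 to 0.18 and chromosome 2 by 0.066 to 0.14, whereas the remaining CTC of C1N lay between -0.027 and 0.025 on both. This rise was not particular to them: the other autosomes that were not lowered, apart from chromosome 3 (mean -0.045), had means from 0.058 to 0.18 in the 4 cells, the highest on chromosome 6. Without these 4 cells CTC minus WBC of C1N on chromosome 7 was -0.023 in place of -0.19, on chromosome 9 it was 0.017 and on chromosome 2 it was 0.011 (2 CTC left). The 4 cells were chosen after their values were seen, so these differences are a description.

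The 4 cells also resembled each other away from chromosomes 2, 7 and 9. Over the 3343 bins of the other 16 autosomes the deviations of the 4 correlated with each other with r from 0.705 to 0.805 (6 pairs of cells). With the other CTC of C1N r ran from -0.11 to 0.15, and with CTC of other samples from -0.21 to 0.47. Chromosomes 10, 12, 13 and 16 were lowered in all 4, as in the plot of C1N cells. A DP cell from the blood of C1N, of level 2, came closest among all other cells, with r from 0.659 to 0.718. It had chromosome 7 at -0.31, chromosome 2 at 0.13 and chromosome 9 at 0.10. In 3 further DP cells of C1N the correlation with the mean of the 4 was 0.697, 0.675 and 0.615, and chromosome 7 was at 0.058, -0.15 and -0.12. The noise of the 4 CTC, 0.135 to 0.152, was below the median of all cells.

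**Figure D3:**
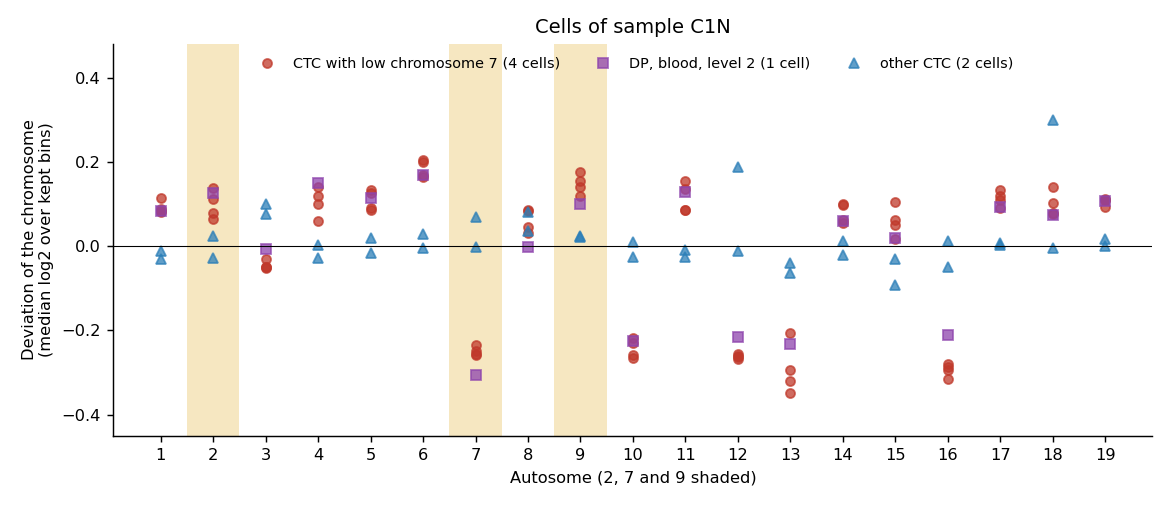
Deviation of each autosome (median log2 over kept bins, vertical axis) in 7 cells of sample C1N, 1 symbol per cell; chromosomes 2, 7 and 9 are shaded. The 4 CTC with low chromosome 7 (red) lie together at -0.26 to -0.23 there and at 0.12 to 0.18 on chromosome 9, the DP cell (purple) lies beside them, and the other CTC (blue) lie near 0 on the shaded chromosomes.

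In single cells a whole chromosome 2, 7 or 9 departed by at least 0.3 in 25 of 1944 pairs of cell and chromosome (1.29%), where 1.49% of such pairs did over all autosomes. The 25 lay in 24 of the 648 cells (3.70%, exact Clopper-Pearson 95% interval 2.39 to 5.46, counting error only). Chromosome 7 deviated in 14 cells, 12 of them low, chromosome 2 in 10 cells, 9 of them low, and chromosome 9 in 1 cell, which was high. A limit on the log2 scale admits losses at a smaller step in deposited units than gains. At level 2 the smallest counted loss was 0.754 units, while chromosome 9 gains of 0.770 (P4) and 0.763 units (P1) fell outside. The excess of losses is therefore partly set by the limit. For comparison chromosome 19 deviated in 31 cells, chromosomes 13 and 16 in 23 each and chromosome 5 in 1. Naive WBC and cultured cells had none (0 of 21, which allows up to 14.3%, and 0 of 22, up to 13.6%). The expected profile was built from the means of these same cells. Their counts, here and for the segments below, are therefore not on equal terms with those of other classes. WBC had 1 of 46 cells, CTC 2 of 43, PltLike 2 of 24, Duplike 1 of 24, CDP 0 of 18 (up to 16.7%) and DP 18 of 450 (interval 2.39 to 6.25%), 10 of 273 in blood and 8 of 177 in lung. All CDP cells were at level 3, where 0 of 61 cells of any class deviated. A given step in units is smaller on the log2 scale at a higher level. At level 3 changes of -1.06, 1.15 and 1.22 units fell short of the limit. Counts of classes at different levels, here and for segments, are therefore not on equal terms. Among DP cells 12 of 219 at level 2 and 5 of 177 at level 1 deviated, and by sample 7 of 93 in P1, 3 of 35 in P2 and 0 of 15 in C2N. The 5 at level 1 include the C1L cell with an autosomal median of 2.44 and a slope of 0.94. The cells of a sample are not replicates and each control class is 1 sample, so the classes were not tested against each other.

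The cells were picked by the limit of 0.3, which sets the smallest step, and 15 more pairs lay between 0.25 and 0.3. The 16 losses at level 2 were lower than the cell's median by 0.754 to 0.987 deposited units with a median of 0.847, a ratio of 0.728 to 0.797, and came from 7 samples. The 2 gains at level 2 were higher by 0.938 and 1.04 units, a ratio of 1.25 and 1.27. The 6 deviations at level 1 had ratios from 0.590 to 1.28, and the loss at level 5 measured -2.76 units, a ratio of 0.711. What a unit means in copies is not given in the sources used here. Of the 25 deviations 16 were in cells with no other autosome past 0.3, and 10 were in cells with noise below the median. The deviating cells just inside 0.3 on chromosome 2 were at -0.30 (PltLike) and the nearest outside at -0.27 (DP, C2R, lung).

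The largest deviation was on chromosome 2. A DP cell of level 1 from the blood of P1 had chromosome 2 at -0.69, a median of 1.08 deposited units against 1.83 for the cell, with 99.4% of bins on the low side and no other autosome past 0.3. Its slope of 0.030 on the other autosomes was that of WBC. A DP cell of level 5 from the lung of P2 was at -0.41, with all bins on the low side, and a blood CTC of C2R was at -0.35. On chromosome 7 the lowest were a lung CTC of C2R (-0.44, 2.65 units against 3.63), a DP cell of level 1 from the lung of P1 (-0.43) and a PltLike cell (-0.37) that was low on chromosome 2 as well (-0.30). On chromosome 9 a DP cell from the blood of C1L stood at 0.35.

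**Figure D4:**
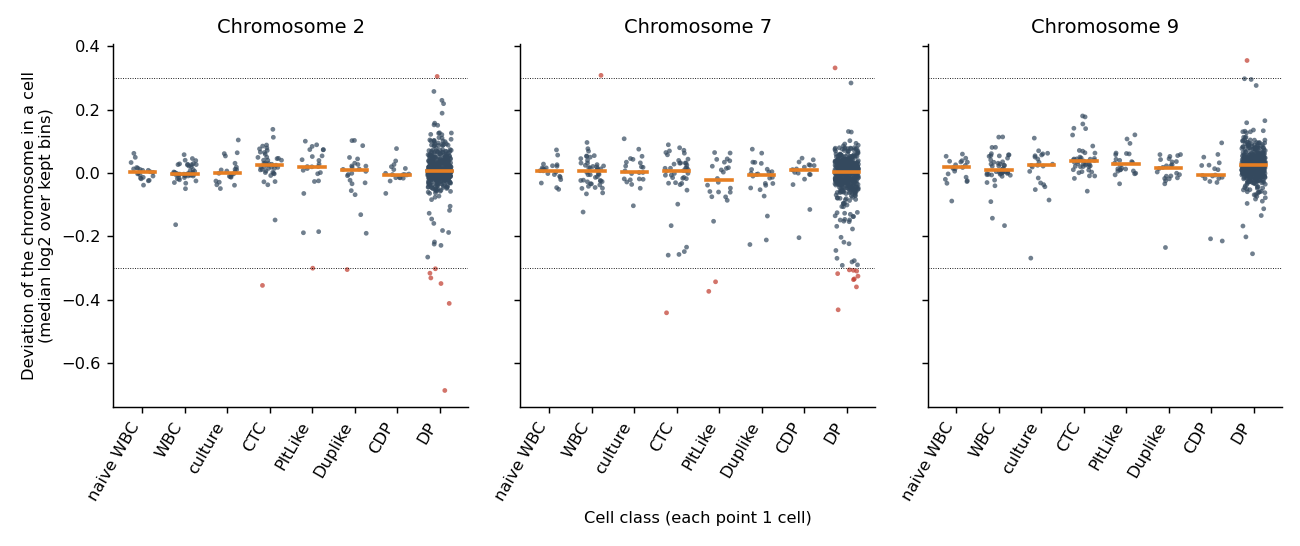
Deviation of chromosomes 2, 7 and 9 in each cell (median log2 over kept bins, vertical axis) by cell class (horizontal axis), 1 point per cell; orange bars are class medians, dotted lines mark -0.3 and 0.3 and red points lie beyond them. The class medians lie near 0 and the red points are mostly losses of chromosomes 2 and 7 in DP cells. The limit admits losses at a smaller step in deposited units than gains.

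Within chromosomes, segments of at least 10 bins at 0.3 or beyond in a running median of 11 bins were found in 158 of the 648 cells (24.4%), 415 segments in all, 103 gains and 312 losses. A segment lay in 10.9% of pairs of cell and chromosome, where 10.3% of pairs did over all autosomes. These segments went with noise: 29 of the 324 cells below the median noise (8.95%) had one, and 129 of the 324 above it (39.8%). The share was 0 of 21 in naive WBC (up to 14.3%), 2 of 22 in culture, 6 of 46 in WBC, 16 of 43 in CTC and 111 of 450 in DP cells (24.7%). It was 12 of 24 in PltLike and 10 of 24 in Duplike cells, whose median noise of 0.201 and 0.190 was the highest of the classes. The 16 of 43 in CTC came with the lowest median noise of the classes, 0.1516, but the CTC with a segment had a median of 0.179. In CDP, with a median noise of 0.1523, 1 of 18 cells had a segment. What part noise has in these shares was not tested.

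Some segments were hidden by the chromosome level. In 96 cells 150 segments lay on a chromosome whose own deviation was under 0.1, with a median length of 6.86 Mb and 110 of them losses. They were 36.1% of the 415 segments, where 32.4% of segments were hidden in this way over all autosomes. Only 5 of the 96 cells had noise below the median. Losses piled up at the bin chr7:37573870-38084476, in 46 cells of 9 samples, and near the end of chromosome 2 (chr2:176642279-178378501), in 28 cells of 10 samples. Of these cells 9 of 46 and 3 of 28 had noise below the median, and in 11 and 7 of them the whole chromosome deviated. The chromosome 2 stretch begins with chr2:176642279-177198741, a bin of low coverage in all classes (ratio 0.217 in naive WBC), next to the zinc finger bins near 0. The chromosome 7 bin was not among the bins with a ratio below 0.5. What part low coverage has in the chromosome 2 losses was not tested.

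Gains piled up at the start of chromosome 7 and came from few samples. The bins around chr7:14728924-21594807 were in a gain in 12 cells, all of C1L, C1N or C1R. They include the low-coverage bin chr7:20366632-20965974 (ratio 0.237 in naive WBC), and what part it has was not tested. Among the 12 cells were 5 blood WBC of C1R, with segment means of 0.60, 0.47, 0.43, 0.42 and 0.30. The deviation of the whole chromosome in these 5 cells was at most 0.096. Their noise was 0.185 to 0.232, above the median of all cells. A DP cell from the lung of C1R (0.40 over the first 27.3 Mb, level 3, noise 0.146) and a DP cell from its blood (0.38 over the first 30.0 Mb, level 2) had noise below that median.

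Segments of at least 20 Mb, a length chosen after the values were seen, were fewer and lay less on the noisy side. There were 51 in 35 cells, 14 gains and 37 losses, of which 24 were in cells with noise below the median. Of the 51, 15 in 14 cells lay on a chromosome that did not deviate as a whole. Among these 15, 8 in 7 cells came with noise below the median.

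The sharpest lay on chromosome 2 of a DP cell of level 1 from the lung of C1R. From chr2:99665762-182113224, 82.4 Mb, the coverage was 3.51 deposited units against 1.89 on the rest of the chromosome and 1.92 for the cell, a gain of 0.87 on the log2 scale. The noise was 0.165 and the slope on the other autosomes 0.052. A DP cell of level 1 from the lung of P1 had a like gain over chr2:90925319-182113224, of 2.43 units against 1.42 on the rest of the chromosome and 1.73 for the cell, with a noise of 0.206. In that cell a loss of -0.39 lay over chr2:37687893-55598067. It was the longest of 9 cases in which a gain and a loss lay on the same chromosome of the same cell, 7 on chromosome 2 and 1 each on chromosomes 7 and 9. The chromosome means of the 9 were between -0.18 and 0.16.

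Losses over part of chromosome 2 were also seen in a DP cell from the blood of C1L, of -0.41 over chr2:122239662-151754123 and -0.45 over chr2:158026989-182113224. The whole of chromosome 2 was at -0.22 in that cell. On chromosome 7 another DP cell from the blood of C1L had a loss of -0.40 over chr7:62582007-126495747, 63.9 Mb. Its whole chromosome 7 was at -0.29, just short of the limit of 0.3, with 87.6% of bins on the low side. One of the 4 CTC of C1N with low chromosome 7 had a loss of -0.34 over chr7:110741473-145441459, with the whole chromosome at -0.25.

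On chromosome 9 a pair of DP cells from the blood of C1R, both of level 2, had nearly the same loss. It ran over chr9:36114884-70212639 in the first, at -0.36, and over chr9:36727067-71277760 in the second, at -0.37, with 65 and 66 bins. The chromosome as a whole was at -0.012 and -0.025, so neither cell stood out by its chromosome level. The noise of both was below the median of all cells. Over chromosome 9 the deviations of the pair correlated with r = 0.745, and over the other 16 autosomes with r = 0.275. The first also had chromosome 7 raised by 0.33, where the second was at 0.028. The first had in addition a short gain over chr9:112770988-118565806, 5.79 Mb, with 5.31 units against 3.81 for the cell, where the second was at 0.022. With 8 of 11 bins at 0.3 or beyond, it is not among the segments counted above. Over this stretch the first cell had a median of 0.57, and blood DP cells of P1 and P4 were at 0.33 each. Over the 67 bins of the loss shared by the pair, the next lowest cell was a DP cell from the lung of C1R (-0.30). A cultured cell followed (-0.28), but both were low over the whole of chromosome 9, at -0.25 and -0.27. The lung cell was also the one raised by 0.40 over the start of chromosome 7.

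**Figure D5:**
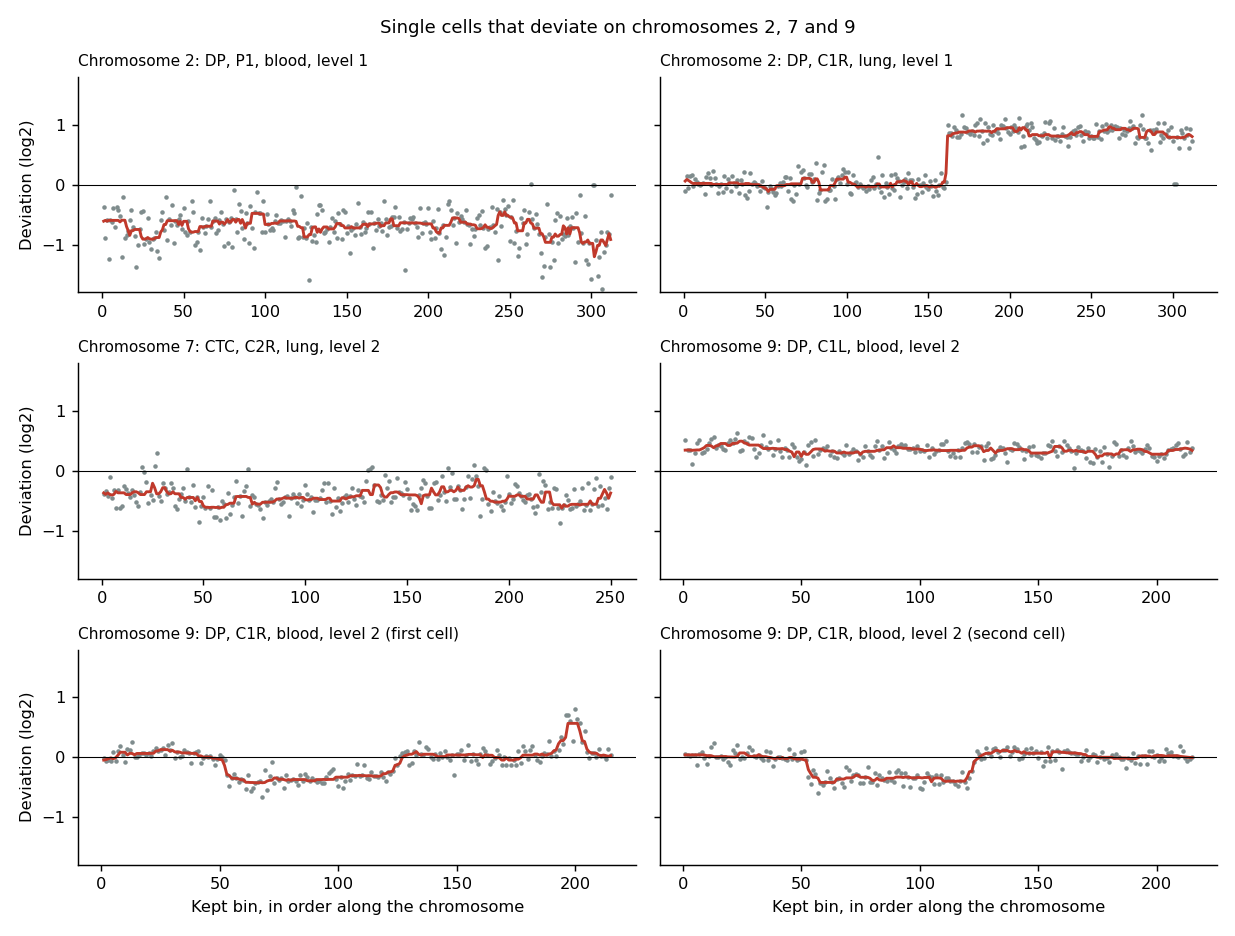
Deviation from the expected profile (log2, vertical axis) of each kept bin in order along chromosome 2, 7 or 9 (horizontal axis) in 6 single cells; points are bins and red lines a running median of 11 bins. The top row shows a whole-chromosome loss (-0.69) and a gain of the distal part (0.87) on chromosome 2, the middle row whole-chromosome changes of -0.44 and 0.35, and the bottom row the pair of C1R cells with a loss of -0.36 and -0.37 inside chromosome 9.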

How the data were processed

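Single cells were sorted, amplified by MALBAC and sequenced as DNA, per the labels' protocols. The submitters' processing notes name Trim Galore, BWA, Picard and SAMtools, with HISAT2 and featureCounts for RNA, and the mm10 build; the settings behind the coverage bins are not given in the sources used here. In each bin and cell the authors deposited a normalised coverage signal. A value of exactly 10 made up 51.5% of values in the 42 left-out bins and 0.00278% in the 777 kept. What this value stands for is not given in the sources used here.

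Each value was divided by the cell's chromosome 1 to 19 median, and log2 was taken with a pseudocount of 0.05 on the ratio. A naive WBC profile plus the cell's slope times the culture difference, the slope from the other 16 autosomes, gave the expected profile. Class means per sample needed at least 3 cells of both classes, which left C1L, C1N, C1R, C2R and C3R. The sample, which the classes share by label, was the block in limma (lmFit and eBayes). Intervals are exact Clopper-Pearson at 95%, and limits for a count of 0 use 3 cells. The scripts were tested on simulated data. Models ran in limma 3.58.1 under R 4.3.3; all else ran in Python 3.11.15 with scipy 1.17.1, pandas 2.3.3, numpy 2.4.6 and, for plots, matplotlib 3.10.9.

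Chromosomes, gene lists and tests were chosen with earlier results of these data known. Named were, per list, up to 3 genes per direction with the largest culture difference and up to 5 per direction past the test in CTC minus WBC, the 2 highest and 2 lowest bins and the 3 most deviating cells per chromosome. The 75 listed genes were all placed through a RefSeq table of GRCm38.p6, the same build. Alternatives changed the pseudocount, centring, bins kept, block, cells and limits.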

Additional observations from a re-analysis of the deposited data

Results flagged for a closer look

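Within groups of 5 samples, 5 of 30 sets of values had a sample far from the other 4, where chance gives about 1 in 20. The chromosome 7 level of CTC was -0.18 in C1N and between -0.049 and -0.0057 in the other samples. CTC minus DP on chromosome 7 was -0.13 in C1N and between -0.024 and 0.017 elsewhere. On chromosome 2, CTC minus WBC was 0.071 in C1N and between -0.0029 and 0.018 elsewhere, and CTC minus DP was 0.049 in C1N and at most 0.0092 elsewhere. These 4 rest on the same 6 CTC of C1N, of which 4 share low chromosome 7. At the Atr bin (chr9:95853308-96381707) CTC minus WBC was -0.042 in C3R and between 0.15 and 0.19 in the other samples.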

How the results depend on the processing

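Bins called in CTC minus WBC (110) numbered 72 (without C2R) to 108 with 1 sample left out, 49 with the median over cells, 58 with blood cells only and 59 with low-noise cells (3 samples). In DP minus WBC (21) they numbered 3 (without C3R) to 27, with 4 without C1L and 5 without C2R, and 52 with all bins kept, 5 with the median over cells, 58 with blood cells only and 11 with low-noise cells. In CTC minus DP (4) they numbered 0 (without C1N, C1R or C2R, with 34, 14 and 15 bins at an unadjusted p under 0.05 by limma) to 3, and 19 with all bins kept, 1 with no replicate block, and 0 with the median over cells, blood cells only or low-noise cells, where 19, 27 and 8 bins had an unadjusted p under 0.05 by limma. Over all 4376 bins, CTC minus DP had 0 calls without C1N, C1R or C2R. DP minus WBC fell there from 1677 to 1148, 928 and 935 without C3R, C1L and C2R. No replicate block gave 93 and 22 bins of chromosomes 2, 7 and 9 for CTC minus WBC and DP minus WBC.

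CTC minus WBC ran from 0.0095 to 0.028 on chromosome 2, from -0.085 to -0.022 on chromosome 7 and from 0.015 to 0.043 on chromosome 9 with 1 sample left out; with all bins kept chromosome 2 was at -0.021 in place of 0.022 and chromosome 9 at -0.0023. Runs of the culture on chromosomes 2, 7 and 9 numbered 0 with limits of 0.15 or 0.3, at least 10 bins, a running median of 3 bins, all bins kept or a pseudocount of 0.2; at 0.1 with at least 3 bins there were 2. Deviating cells (24) numbered 4 at 0.4, 54 at 0.2, 10 with low-noise cells and 19 against their own class and sample, of which 17 were among the 24. Cells with a segment (158) numbered 68 at 0.4, 269 at 0.2, 29 with low-noise cells and 35 at 20 Mb or more, alternatives added after the data were seen.

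Depth per cell is unknown and bins have a median width of 531 kb, which limits how short a change can be seen.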
